A study of Homo sapiens with 9 samples.

Results

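The transforming growth factor beta (TGF-β) genes described here are 10 genes found by their symbols in the deposited files: the ligands TGFB1 and TGFB2, the latency protein LTBP1, the activator THBS1, the receptors TGFBR1, TGFBR2 and TGFBR3, the inhibitors SMAD7 and SKIL, and the induced matrix gene TGFBI. All 10 were listed, of 16199 genes with an entry in at least 1 file, and all 10 passed the filter on low counts that kept 12394 genes. They were measured by RNA sequencing of HaCaT cells, an immortalized keratinocyte line from human skin. Post-confluent cultures were kept for 24 h in serum-free medium alone (untreated), with 10 nM of epidermal growth factor (EGF), or with 1 µM of bleogen pB1, a miniprotein from the cactus Pereskia bleo that activates the EGF receptor. Each group had 3 replicates. The doses of EGF and bleogen pB1 differed, both treated groups were set against the same untreated libraries, and a cell line is a single genotype, so that the replicates do not stand for different people.

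TGF-β ligands are secreted in a latent form, held by their propeptide and by latent TGF-β binding proteins, and are released by proteins such as thrombospondin and integrins. Active ligand brings together the type II receptor TGFBR2 and the type I receptor TGFBR1, with TGFBR3 as a co-receptor that presents ligand, and TGFBR1 then phosphorylates SMAD2 and SMAD3, which enter the nucleus with SMAD4. The pathway is known for stopping the growth of keratinocytes and for inducing matrix genes, and it switches on its own inhibitors, among them SMAD7, which blocks the receptor, and SKIL, which represses the SMAD complex.

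The libraries held 20288417 to 21320994 expected counts, so that 3 counts, the smallest level that can be told from 0, were 0.141 to 0.148 CPM (counts relative to library size; levels are given with TMM factors applied). All 5 keratinocyte markers were present in every library, with a summed level of 9522 to 10640 CPM in untreated, 7087 to 7464 in EGF-treated and 9393 to 11060 in bleogen pB1-treated cells. The members of this list did not move together: with EGF the mean level of KRT5 was 3604 CPM beside 7811 CPM in untreated cells and that of CDH1 282 beside 444 CPM, while KRT14 had 2908 beside 1578 CPM, TP63 313 beside 221 CPM and DSG3 182 beside 173 CPM. With bleogen pB1, KRT14 (mean 2200 CPM), TP63 (259 CPM) and DSG3 (204 CPM) lay above all untreated libraries. CDH1 (399 CPM) lay below them, and KRT5 (7217 CPM) overlapped them. The 6 fibroblast markers summed to 7.62 to 9.31 CPM in untreated, 1.30 to 1.95 in EGF-treated and 6.08 to 9.08 in bleogen pB1-treated cells, with 3 of 6 over 3 counts in every untreated library and PDGFRA at 0 there, COL1A2 and LUM at 0 in all EGF-treated libraries, and COL1A2 and PDGFRA at 0 in all bleogen pB1-treated ones. The 3 endothelial markers summed to 3.44 to 4.78 CPM, 0.289 to 0.504 and 1.11 to 1.91 CPM in the same order, and no immune marker was over 6 counts in any library. The 3 melanocyte markers listed summed to 1.35 to 1.58 CPM, 0.750 to 1.30 CPM and 0.928 to 1.53 CPM. These sums moved with EGF, and the endothelial sum was also lower with bleogen pB1 than in untreated cells, without overlap. The latter fall lay mostly in CDH5, with a mean of 0.534 CPM beside 2.72 CPM in untreated cells. VWF overlapped between these 2 groups, and PECAM1 had at most 7 counts in any library. The part of the marker sums in the changes below was not tested. In a culture measured as a whole, a smaller share of cells that make an mRNA and less of that mRNA per cell cannot be told apart.

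The levels of the 10 genes spanned more than 3 orders of magnitude, given here as FPKM, which is scaled for gene length. In untreated cells, THBS1 had 268 ± 8.02 FPKM and TGFBI 219 ± 4.44 FPKM (mean ± SD, n = 3), more than 98.2% and 97.7% of the 12394 genes tested. TGFB1 followed with 29.9 ± 1.22 FPKM and TGFBR2 with 20.4 ± 0.359 FPKM. TGFBR1 had 7.07 ± 0.757 FPKM and SKIL 6.42 ± 0.409 FPKM, and these neighbours overlapped between libraries. TGFB2 had 4.52 ± 0.363 FPKM and SMAD7 3.54 ± 0.231 FPKM. LTBP1, with 0.247 ± 0.0681 FPKM, and TGFBR3, with 0.113 ± 0.0681 FPKM, exceeded only 4.1% and 1.5% of the genes tested and overlapped each other. They were covered by 19 to 37 and by 5 to 31 counts per library, so that only large changes could be detected for these genes.

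**Figure D1:**
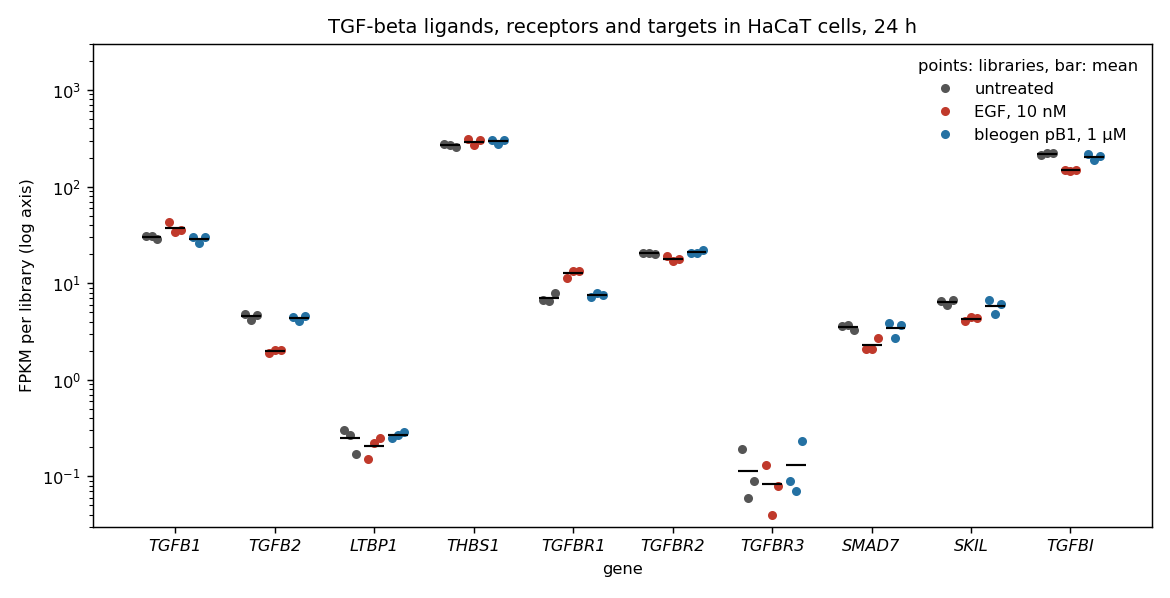
Level of each of the 10 genes in FPKM (log axis) in each library, with untreated, EGF-treated and bleogen pB1-treated cells side by side; points are libraries and bars are means of 3. TGFB2, SKIL, SMAD7 and TGFBI sit lower and TGFBR1 higher in all 3 EGF-treated libraries than in the untreated ones, while LTBP1 and TGFBR3 lie below 0.31 FPKM.

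With EGF, 5 of the 10 genes were called, meaning an adjusted p of at most 0.05 and a |log2FC| of at least 0.5 by edgeR: TGFBR1 rose, and TGFB2, SMAD7, SKIL and TGFBI fell. Of all genes tested, 36.9% were called with EGF, 15.1% as rises and 21.8% as falls, so that a call was common in this comparison. On adjusted p alone, without the fold-change limit, 7 of 10 genes passed, against 66.1% of all genes. The median log2 fold change of the 10 genes was -0.32, beside -0.01 over all genes. With bleogen pB1, 0 of the 10 genes were called by edgeR, and 0 passed on adjusted p alone, 0 had an unadjusted p under 0.05, and 0 were called by DESeq2 or by limma on log2(FPKM + 1). The background for bleogen pB1 was low, with 1.48% of all genes called, 0.218% as rises and 1.26% as falls, and 4.11% passing on adjusted p alone. The 183 genes behind this share became 436 without bleogen pB1 replicate 1, 109 without replicate 2, 102 without replicate 3 and 102 without untreated replicate 1. The median log2 fold change of the 10 genes was -0.01, beside -0.001 over all genes. Nothing in the labels or methods says that the replicates came from separate cultures, so that p-values measure only the spread between these samples, which may be technical.

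Among the ligands, EGF lowered TGFB2 and left TGFB1 under the fold-change limit. TGFB2 encodes an isoform that epithelia express beside TGFB1, and its gene lies at chr1:218345336-218444619 (GRCh38, plus strand). Its level was 27.9, 24.1 and 26.8 CPM in the untreated libraries, 11.5, 12.4 and 12.1 CPM with EGF, and 25.6, 23.2 and 26.2 CPM with bleogen pB1. All 3 EGF-treated libraries were below all other libraries, and the untreated and bleogen pB1-treated libraries overlapped. TGFB2 thus fell with EGF by 1.13 on the log2 scale (SE 0.0904, adjusted p = 3.9e-07), the largest change among the 10 genes, and its interval with bleogen pB1 ran from -0.26 to 0.11 (95%). The fall with EGF was called under each alternative run, with log2 fold changes of -1.23 to -0.89.

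TGFB1, the most widely made isoform, had 80.6, 81.6 and 74.8 CPM in untreated cells, 120, 93.5 and 97.3 CPM with EGF and 79.3, 68.4 and 77.7 CPM with bleogen pB1. EGF-treated replicate 1 was the highest of the 9 libraries, and all 3 EGF-treated libraries were above the other 6. The log2 fold change was 0.39 (SE 0.0911, adjusted p = 0.0021), below the fold-change limit, and 0.27 without EGF replicate 1. With bleogen pB1 it was -0.07 (95% interval -0.27 to 0.13).

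The balance of the ligands therefore differed between EGF and the other groups. Per length, TGFB1 exceeded TGFB2 by 6.36, 7.46 and 6.12 times in the untreated libraries, by 22.8, 16.5 and 17.5 times in the EGF-treated libraries and by 6.82, 6.49 and 6.54 times in the bleogen pB1-treated libraries. The ratio was 6.64 ± 0.712 in untreated cells, 19.0 ± 3.39 with EGF and 6.62 ± 0.180 with bleogen pB1 (mean ± SD, n = 3). TGFB2 made up 13.0 ± 1.13% of the summed FPKM of TGFB1, TGFB2 and TGFB3 in untreated cells and 5.07 ± 0.788% with EGF. The summed ligand level was 34.8 ± 1.12 FPKM in untreated, 39.6 ± 4.89 FPKM in EGF-treated and 33.7 ± 2.51 FPKM in bleogen pB1-treated cells, and EGF-treated replicate 1 held the highest sum, 45.2 FPKM. TGFB3, chosen for mention after its values were seen, contributed little: it had 25 to 34 counts in untreated, 10 to 16 in EGF-treated and 29 to 47 in bleogen pB1-treated libraries, a fall with EGF (log2FC -1.23, SE 0.312, adjusted p = 0.0036) that was not called by limma on log2(FPKM + 1).

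Neither gene for latency and activation among the 10 was called. LTBP1, which anchors latent TGF-β in the matrix, had 1.78, 1.52 and 1.00 CPM in untreated, 0.950, 1.36 and 1.30 CPM in EGF-treated and 1.43, 1.48 and 1.73 CPM in bleogen pB1-treated libraries. Its 95% intervals were -0.84 to 0.34 with EGF and -0.45 to 0.68 with bleogen pB1, wide because of its low counts. THBS1, which encodes thrombospondin, a matrix protein that releases active ligand and is itself a target of the pathway, had 1952, 1938 and 1831 CPM in untreated libraries, 2302, 1978 and 2224 CPM with EGF and 2175, 1929 and 2134 CPM with bleogen pB1. EGF-treated replicate 2 and bleogen pB1-treated replicate 2 were the lowest of their groups and lay near the untreated libraries. The log2 fold change was 0.19 with EGF (SE 0.0716, adjusted p = 0.036), under the fold-change limit, and 0.12 with bleogen pB1 (95% interval -0.03 to 0.28). With other settings the adjusted p of THBS1 for EGF ran from 0.0068 to 0.35.

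Of the receptors, EGF raised TGFBR1. This gene, at chr9:99104038-99154192 (GRCh38, plus strand), encodes the type I receptor kinase that phosphorylates SMAD2 and SMAD3. It had 42.9, 42.2 and 50.4 CPM in untreated cells, 76.5, 88.1 and 88.3 CPM with EGF and 45.7, 50.1 and 47.1 CPM with bleogen pB1. The EGF-treated libraries lay above all 6 others without overlap. TGFBR1 rose with EGF by a log2 fold change of 0.90 (SE 0.0833, adjusted p = 1.3e-06), and its interval with bleogen pB1 was -0.11 to 0.26. The rise was called under each alternative run, with log2 fold changes of 0.76 to 0.99.

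TGFBR2, the type II receptor that binds ligand first, had 93.2, 94.3 and 90.0 CPM in untreated, 91.7, 79.9 and 84.1 CPM in EGF-treated and 92.7, 92.5 and 98.3 CPM in bleogen pB1-treated libraries. EGF-treated replicate 1 overlapped the untreated libraries, and the log2 fold change with EGF was -0.12 (95% interval -0.25 to 0.02, adjusted p = 0.11, or 0.0061 to 0.39 under the alternatives). With bleogen pB1 it was 0.03 (95% interval -0.10 to 0.17). TGFBR3 had 1.21, 0.344 and 0.573 CPM in untreated, 0.850, 0.252 and 0.530 CPM in EGF-treated and 0.573, 0.464 and 1.45 CPM in bleogen pB1-treated libraries, and the 3 groups overlapped. Its interval with EGF ran from -1.63 to 0.88, which includes a 2-fold fall.

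As TGFBR1 rose while TGFBR2 did not, the ratio of the type II to the type I receptor mRNA differed with EGF. Per length, TGFBR2 exceeded TGFBR1 by 3.06, 3.14 and 2.51 times in untreated, by 1.69, 1.27 and 1.34 times in EGF-treated and by 2.86, 2.60 and 2.93 times in bleogen pB1-treated libraries. The ratio was 2.91 ± 0.342, 1.43 ± 0.223 and 2.80 ± 0.171 in this order (mean ± SD, n = 3), with no overlap between EGF and either other group. These ratios are a description, with no test of their own.

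Both inhibitors fell with EGF, by amounts close to the fold-change limit. SMAD7, an inhibitory SMAD that recruits ubiquitin ligases to the type I receptor, had 9.98, 10.4 and 8.31 CPM in untreated, 5.80, 6.09 and 7.51 CPM in EGF-treated and 10.4, 7.56 and 9.64 CPM in bleogen pB1-treated libraries. EGF-treated libraries were below the others, but EGF-treated replicate 3 and bleogen pB1-treated replicate 2 differed by less than 0.1 CPM. SMAD7 fell with EGF by 0.56 on the log2 scale (SE 0.155, adjusted p = 0.0062). The interval with bleogen pB1 was -0.38 to 0.27.

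SKIL, also called SnoN, a nuclear repressor of SMAD complexes, had 46.6, 42.1 and 47.1 CPM in untreated, 30.0, 32.5 and 31.7 CPM in EGF-treated and 46.8, 33.5 and 42.4 CPM in bleogen pB1-treated libraries. Again bleogen pB1-treated replicate 2 lay next to the EGF-treated libraries and the other 2 bleogen pB1-treated libraries lay within the range of the untreated ones. SKIL fell with EGF by 0.53 on the log2 scale (SE 0.105, adjusted p = 0.00067), and its log2 fold change with bleogen pB1 was -0.15 (95% interval -0.37 to 0.08), or -0.03 without bleogen pB1 replicate 2.

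TGFBI, named for its induction by TGF-β, encodes a secreted matrix protein that binds collagen and integrins. It had 578, 605 and 594 CPM in untreated, 422, 409 and 417 CPM in EGF-treated and 588, 506 and 546 CPM in bleogen pB1-treated libraries. The spread within the untreated and EGF-treated groups was small beside the gap between them, while bleogen pB1-treated replicates 2 and 3 were below all untreated libraries and replicate 1 was among them. TGFBI fell with EGF by 0.51 on the log2 scale (SE 0.0612, adjusted p = 1.1e-05), and its log2 fold change with bleogen pB1 was -0.12 (95% interval -0.25 to 0.02).

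The calls of these 3 genes depended on the limit of 0.5 rather than on adjusted p. The log2 fold change with EGF ran from -0.68 to -0.47 for SMAD7, from -0.63 to -0.49 for SKIL and from -0.61 to -0.49 for TGFBI over the alternatives, with adjusted p of at most 0.05 in each. SMAD7 was not called without untreated replicate 2 (-0.50) or EGF replicate 1 (-0.49), SKIL not without untreated replicate 3 (-0.50) or EGF replicate 1 (-0.49), and TGFBI not without untreated replicate 2 (-0.49) or EGF replicate 2 (-0.49), nor by DESeq2 (-0.50) or with RLE factors. By limma on log2(FPKM + 1), which understates the change of low genes, SMAD7 (-0.47) and SKIL (-0.49) were not called. Bleogen pB1-treated replicate 2 had the lowest level of its group for 8 of the 10 genes, and without it 0 of the 10 were called with bleogen pB1. Some of these margins were small, as for TGFBR2 with 92.5 CPM beside 92.7 CPM in replicate 1. The same count over all genes was not made, so that it cannot be read as particular to these genes.

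**Figure D2:**
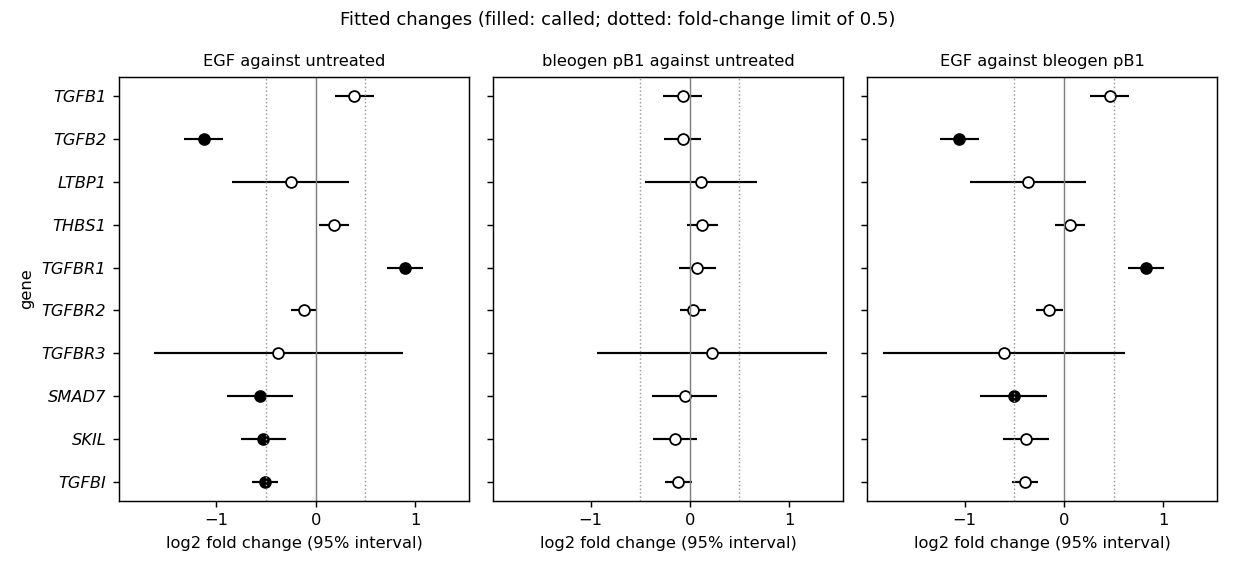
Fitted log2 fold change of each of the 10 genes with its 95% interval in EGF against untreated, bleogen pB1 against untreated and EGF against bleogen pB1; filled points are called, and dotted lines mark the fold-change limit of 0.5. All 10 intervals include 0 for bleogen pB1, while with EGF TGFB2 and TGFBR1 lie well past the limit and SMAD7, SKIL and TGFBI lie at it.

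The promoters of the 4 genes called as falls with EGF are shown, each gene chosen by its own call. Whether these genes are regulated together was not tested. The windows are the 250 bases before the first RefSeq start listed for each (GRCh38.p14, 5′ to 3′ on the gene's strand). GENCODE places the start of SKIL further upstream, at 170357342, so that its window lies before the RefSeq start only. TGFBR1 is not shown, because its first window lies within the span of the gene in RefSeq as well as in GENCODE. The SMAD box CAGAC, which SMAD3 and SMAD4 bind, is in capitals on either strand.
TGFB2, chr1:218345086-218345335: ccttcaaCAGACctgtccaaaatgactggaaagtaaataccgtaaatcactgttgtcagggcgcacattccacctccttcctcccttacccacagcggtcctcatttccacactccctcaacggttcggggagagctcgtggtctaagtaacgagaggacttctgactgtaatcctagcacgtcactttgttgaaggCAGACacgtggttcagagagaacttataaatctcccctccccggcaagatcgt
SMAD7, chr18:48950966-48951215: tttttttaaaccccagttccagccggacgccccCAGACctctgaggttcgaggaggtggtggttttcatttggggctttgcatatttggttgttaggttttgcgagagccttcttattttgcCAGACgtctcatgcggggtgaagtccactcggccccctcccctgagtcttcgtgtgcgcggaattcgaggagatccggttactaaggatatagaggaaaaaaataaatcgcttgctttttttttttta
SKIL, chr3:170357465-170357714: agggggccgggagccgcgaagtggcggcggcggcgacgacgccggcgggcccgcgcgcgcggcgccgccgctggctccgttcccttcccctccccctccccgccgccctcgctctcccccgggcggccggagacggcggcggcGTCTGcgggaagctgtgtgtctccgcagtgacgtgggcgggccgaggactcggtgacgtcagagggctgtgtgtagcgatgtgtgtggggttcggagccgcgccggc
TGFBI, chr5:136028738-136028987: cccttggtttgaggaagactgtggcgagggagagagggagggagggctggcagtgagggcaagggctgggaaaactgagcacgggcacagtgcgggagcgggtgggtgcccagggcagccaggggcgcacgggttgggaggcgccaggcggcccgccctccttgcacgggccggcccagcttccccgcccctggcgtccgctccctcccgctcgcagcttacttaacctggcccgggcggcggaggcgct
TGFB2 held this box at positions -243 and -53 from the start, SMAD7 at -217 and -128 and SKIL at -107, and TGFBI held none. Counted over windows that also held 50 bases after the start, 45.0% of the 27305 RefSeq promoters contained the box. LTBP1 held 2 boxes, THBS1 held 1, and TGFBR1, which rose, held 1 at -213 in its first window. Genes with a box were thus found among those that fell, rose and were not called. The palindrome GTCTAGAC, in 0.201% of all windows, and the AP-1 site TGANTCA, in 7.76%, were not found in the first window of any of the 10 genes. For TGFBR3, as for TGFBR1, that window lies within the span of the gene. A match of letters is no evidence of binding, and distant elements were not searched.

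In the direct comparison of EGF with bleogen pB1, 3 of the 10 genes were called: TGFBR1 was higher and TGFB2 and SMAD7 were lower with EGF. The background was 28.8% of all genes called, 10.8% higher and 18% lower with EGF, and 58.2% on adjusted p alone, on which 6 of the 10 passed. The median log2 difference of the 10 genes was -0.37, beside -0.01 over all genes. TGFB2 differed by -1.06 (SE 0.0905, adjusted p = 1.0e-06) and TGFBR1 by 0.82 (SE 0.0830, adjusted p = 4.0e-06). SMAD7 differed by -0.51 (SE 0.155, adjusted p = 0.013), and was not called by DESeq2 (-0.50), with RLE factors (-0.50), by limma on log2(FPKM + 1) (-0.43) or without EGF replicate 1 (-0.43), EGF replicate 2 (-0.46), bleogen pB1 replicate 1 (-0.41) or bleogen pB1 replicate 3 (-0.47). TGFB1 differed by 0.46 (adjusted p = 0.00085), SKIL by -0.38 (adjusted p = 0.0077) and TGFBI by -0.39 (adjusted p = 0.00014), each under the fold-change limit, and TGFB1 passed it without EGF replicate 2 (0.54), EGF replicate 3 (0.51) or bleogen pB1 replicate 1 (0.50). THBS1 differed by 0.06 (95% interval -0.09 to 0.22), with a sign that turned under upper-quartile factors, no scaling and limma on FPKM, and TGFBR2 by -0.15 (95% interval -0.28 to -0.01, adjusted p = 0.056).

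The other genes of the pathway, 37 in number with 35 tested, also changed in both directions with EGF. With EGF 15 were called, 42.9% of those tested beside 36.9% of all genes, 6 as rises and 9 as falls, and the median log2 fold change of the 35 was -0.04, beside -0.01 over all genes. With bleogen pB1, 0 of 35 were called by edgeR, beside 1.48% of all genes. Of the 35, 5 had an unadjusted p under 0.05, 1 was called by DESeq2 and 0 by limma on log2(FPKM + 1), and the median was -0.07. Among these 5 were LTBP2, CDKN1A, CDKN2B and FN1, which encodes fibronectin and was chosen for mention after its values were seen (log2FC -0.27, adjusted p = 0.087). FN1 was also lower with EGF (log2FC -0.34, adjusted p = 0.0031), under the fold-change limit. Its difference between EGF and bleogen pB1 was -0.07 (adjusted p = 0.50). Between EGF and bleogen pB1, 14 were called, 40.0% of those tested beside 28.8% of all genes, 6 higher and 8 lower with EGF.

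Among the genes of ligand supply and latency, the binding proteins LTBP2 and LTBP3 fell with EGF. LTBP2 had 36.9, 33.1 and 33.2 CPM in untreated, 14.4, 16.2 and 16.1 CPM in EGF-treated and 28.7, 16.7 and 25.0 CPM in bleogen pB1-treated libraries. It fell by 1.14 with EGF (SE 0.153, adjusted p = 2.8e-05). With bleogen pB1 its log2 fold change was -0.55 (SE 0.148, adjusted p = 0.054), all 3 libraries lay below the untreated ones, and replicate 2 was close to the EGF-treated libraries. It was called in this comparison by DESeq2, on the 6 compared libraries alone, without the count filter and without bleogen pB1 replicate 1. LTBP3 had a log2 fold change of -0.78 with EGF (SE 0.0936, adjusted p = 1.1e-05). FURIN, the protease that cuts the propeptide from the ligand, rose with EGF by 0.64 (SE 0.0637, adjusted p = 2.4e-06). Of the integrin genes for activation, ITGAV, ITGB6 and ITGB8, 0 of 3 were called with EGF, beside 36.9% of all genes. Their log2 fold changes were -0.35 for ITGAV (adjusted p = 0.0040), -0.38 for ITGB8 (adjusted p = 0.0042) and 0.09 for ITGB6 (adjusted p = 0.34).

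The transducers SMAD2, SMAD3 and SMAD4 were not called in any comparison. Of all genes, 36.9% were called with EGF, 1.48% with bleogen pB1 and 28.8% between EGF and bleogen pB1. With EGF the log2 fold change was 0.19 for SMAD2 (adjusted p = 0.0066), 0.31 for SMAD3 (adjusted p = 0.0046) and 0.12 for SMAD4 (adjusted p = 0.068). Of 10 tested inhibitors beside SMAD7 and SKIL, 2 rose and 3 fell with EGF. SMAD6, the other inhibitory SMAD, which acts mainly on the bone morphogenetic protein branch, had 7.76, 8.40 and 7.79 CPM in untreated, 0.900, 1.71 and 1.64 CPM in EGF-treated and 8.22, 5.10 and 6.74 CPM in bleogen pB1-treated libraries. It fell by 2.49 with EGF on the log2 scale (SE 0.231, adjusted p = 1.4e-06), the largest change in the list. TGIF2, a repressor of SMAD complexes, fell by 0.56 (SE 0.121, adjusted p = 0.0012), and was not called without EGF replicate 2. BAMBI, a decoy receptor chosen for mention after its values were seen, fell by 0.58 (SE 0.219, adjusted p = 0.032) with libraries that overlapped, and was not called by DESeq2, on the 6 compared libraries, by limma on log2(FPKM + 1), or without untreated replicate 2 or 3 or EGF replicate 2 or 3. SMURF2 and NEDD4L, ubiquitin ligases that target receptors and SMADs, rose by 0.72 (SE 0.0709, adjusted p = 2.4e-06) and 0.50 (SE 0.0613, adjusted p = 1.2e-05). NEDD4L lay at the limit and was not called with upper-quartile factors, without scaling, with at least 10 counts in every library, by limma at any setting, or without untreated replicate 3 or EGF replicate 2. PMEPA1, an induced inhibitor, had a log2 fold change of -0.04 with EGF (95% interval -0.30 to 0.23).

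Genes known to be induced by TGF-β were called in both directions with EGF, 3 as rises and 1 as a fall of 9 tested, a share of 44.4% beside 36.9% of all genes. CDKN1A, an inhibitor of cyclin-dependent kinases, rose with EGF by 1.51 (SE 0.142, adjusted p = 1.5e-06), while CDKN2B, another such inhibitor and a classical TGF-β target in keratinocytes, fell by 1.75 (SE 0.137, adjusted p = 3.1e-07). With bleogen pB1 the values were -0.43 for CDKN1A (adjusted p = 0.11) and -0.40 for CDKN2B (adjusted p = 0.092). CDKN2B had 71.8, 45.2 and 63.8 CPM in the bleogen pB1-treated libraries, 75.9 to 82.7 CPM in untreated and 21.3 to 25.1 CPM in EGF-treated cells. HMGA2, a chromatin protein chosen for mention after its values were seen, rose with EGF by 1.05 (SE 0.141, adjusted p = 3.0e-05). CCN2, a matrix-associated growth factor gene, had a log2 fold change of -0.04 with EGF (95% interval -0.40 to 0.32). ID1 and ID3, which TGF-β represses in epithelial cells, fell with EGF by 0.69 (SE 0.0878, adjusted p = 1.8e-05) and 0.75 (SE 0.0778, adjusted p = 3.4e-06).

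**Figure D3:**
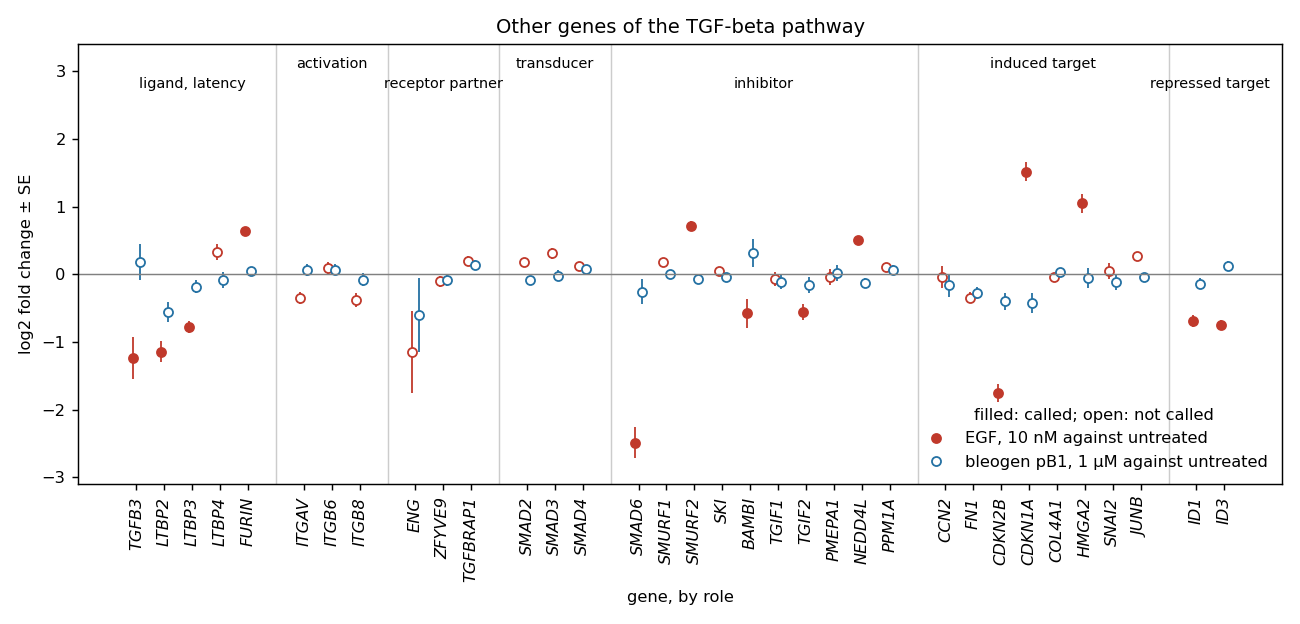
Log2 fold change ± SE of 34 of the 35 other pathway genes tested, ordered by role, for EGF (red) and bleogen pB1 (blue) against the same untreated libraries; filled points are called. With EGF called genes lie on both sides of 0, from SMAD6 at -2.49 to CDKN1A at 1.51, and no bleogen pB1 point is called.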

How the data were processed

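RNA of 9 HaCaT libraries (3 untreated, 3 EGF, 3 bleogen pB1, grouped by their labels) was sequenced and mapped by the authors to GRCh38.p12. Aligner and counter are not given in the sources used here. Per gene, the authors deposited an unscaled expected count and an FPKM value, which is scaled for depth and for a gene length that can differ between libraries. Genes without an entry in a file were set to 0. The libraries are stranded, but whether counting used the strand is not stated. Exons of TGFB1, TGFB2, LTBP1 and THBS1 overlap genes on the other strand in GENCODE release 44, so that their values are less certain. TGFB2 exons also overlap those of TGFB2-OT1 on the same strand, which stranded counting would not separate.

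Expected counts were rounded and fitted with edgeR 4.0.16 (R 4.3.3): filterByExpr, TMM factors, quasi-likelihood F-test, all 9 libraries in 1 fit with 6 residual degrees of freedom, Benjamini-Hochberg adjustment over 12394 genes, and the study's limits (adjusted p of at most 0.05, |log2FC| of at least 0.5). SE is the absolute log2 fold change over the square root of F, and 95% intervals use t. Alternatives were DESeq2 1.42.0, limma 3.58.1 on log2(FPKM + 1) and log2(FPKM + 0.1), other scalings and filters, the 6 compared libraries, each replicate left out and a replicate block. The fit was tested on simulated data. The 10 genes and the lists were chosen with earlier results of these data known. Named were all 10 genes, CCN2 and PMEPA1, any pathway gene called with bleogen pB1, and per role up to 2 rises and 2 falls with EGF (at least 50 mean counts, no overlap of groups). Outside this rule, the integrin genes and SMAD2, SMAD3 and SMAD4 were named as all genes of their roles. Other genes outside it are marked where they appear. 1 pathway gene that the rule names is not reported here and stays in the fits and the list totals. ACVRL1 and LDLRAD4 failed the count filter. The floor of 3 counts covers counting error only.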

Additional observations from a re-analysis of the deposited data

How the results depend on the processing

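The log2 fold changes of the 10 genes were recomputed in 501 combinations of gene, comparison and alternative: 466 kept their sign and their side of the limits, 20 lost a call, 3 gained one and 12 turned the sign of an uncalled value (TGFBR3, LTBP1, THBS1 and SMAD7). No called value turned its sign. With EGF, the number of the 10 genes called was 5, and it was 3 by limma on log2(FPKM + 1) with or without a filter at a mean FPKM of 1, 1 with a |log2FC| of at least 1, and 3 to 5 with each replicate left out. With bleogen pB1 it was 0 under each alternative run. Between EGF and bleogen pB1 it was 3, with 6 on adjusted p alone, 1 at a |log2FC| of at least 1 and 2 to 4 with replicates left out. Of the other pathway genes, 15 were called with EGF, 24 on adjusted p alone, 7 at a |log2FC| of at least 1 and 13 to 16 with replicates left out; between EGF and bleogen pB1 14 were called, 22 on adjusted p alone, 6 at a |log2FC| of at least 1 and 14 to 15 with replicates left out. With bleogen pB1 the pathway count was 0, and 1 (LTBP2) without the count filter, on the 6 compared libraries, by DESeq2 and with the replicate block, and 0 to 2 with replicates left out, the 2 being LTBP2 and CDKN2B without bleogen pB1 replicate 1. The cause of these differences was not tested, except that the fold-change limit sets the counts it defines. Counts over all genes moved too. With EGF, 4578 of 12394 genes were called, 8187 on adjusted p alone and 4405 to 4737 with replicates left out. By limma on log2(FPKM + 1), 3434 of 16199 were called with EGF. Between EGF and bleogen pB1 these counts were 3564, 7214, 3106 to 4041 and 2593. No count over all genes was made at a |log2FC| of at least 1. Upper-quartile factors moved the median of all genes with EGF to -0.12, beside -0.01 with TMM.

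Replicate numbers were not shown to pair the samples: the correlation of same-numbered deviations was 0.045, 0.036 and 0.004 for EGF and untreated and 0.207, -0.030 and 0.113 for bleogen pB1 and untreated, and not every library correlated best with its own number. With the replicate block 5, 0 and 3 of the 10 genes were called in the 3 comparisons. Depth limits what can be said of LTBP1 and TGFBR3, which had at most 37 and 31 counts in any library.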
